A study of Mus musculus with 4 samples.

Results

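The LDL receptor family members Vldlr, Lrp1, Lrp1b, Lrp2, Lrp4, Lrp5, Lrp6, Lrp8 and Sorl1 were compared between aged and young mouse mammary fat pad (MFP), the fat-rich tissue that holds the mammary ducts. Members were chosen by gene symbol, as the rows of the count table with those names, which gave 9 of the 55487 genes in the table. RNA came from whole MFP of mice that the labels name c57b/6j, aged 14 months (n = 2) or young at 8 weeks (n = 2), with no treatment or modified allele named for either age. The study chose the fat-rich MFP as a site for melanoma injection because mouse hypodermis is too thin to enclose a growing tumour. It also named the shared embryological origin of MFP and subcutaneous adipocytes, and compared MFP RNA between the ages. Each library was total RNA depleted of ribosomal RNA and prepared strand-specifically. Because whole tissue was lysed, fewer cells of a type and less RNA per cell cannot be told apart in any value below.

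LDL receptor family proteins are single-pass membrane proteins that carry ligand-binding class A repeats outside the cell and short sorting signals inside it. They take up lipoproteins, proteases with their inhibitors and other ligands for delivery to lysosomes. Some members also signal: Vldlr and Lrp8 are the receptors of reelin, Lrp5 and Lrp6 are coreceptors for Wnt proteins, and Lrp4 is the agrin receptor that works with the kinase Musk at the nerve-muscle synapse. In fat and muscle, Vldlr is known for binding triglyceride-rich lipoproteins at the cell surface beside lipoprotein lipase.

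The coding sequence around the sorting or signalling motif is shown for 6 members, as a motif of uptake receptors or of Wnt coreceptors. The longest complete coding sequence of each member was read from GENCODE M21 on GRCm38. Its last 250 codons were searched in frame on the coding strand for the NPxY motif (AAC or AAT, then CCN, NNN and TAC or TAT), to which endocytic and phosphotyrosine-binding adaptors attach, and for the PPPSP motif of the Wnt coreceptors, counted with either a serine or a threonine codon. Capitals mark the motif, with 5 codons before it and 6 after it, or 5 after it in Lrp5 and Lrp6, in which the motif lies that near to the end.

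Vldlr: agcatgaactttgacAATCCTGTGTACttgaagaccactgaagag
Lrp8: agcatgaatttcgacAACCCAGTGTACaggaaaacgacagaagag
Lrp1: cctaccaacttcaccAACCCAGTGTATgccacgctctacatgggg
Lrp4: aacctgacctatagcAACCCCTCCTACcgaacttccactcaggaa
Lrp5: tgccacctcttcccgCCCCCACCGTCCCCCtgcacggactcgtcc
Lrp6: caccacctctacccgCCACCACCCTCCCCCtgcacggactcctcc

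The Vldlr stretch lies in exon 18 at chr19:27247925-27247969 on the plus strand and starts its motif at codon 834 of 873. For Lrp8 the position is exon 17, chr4:107869046-107869090 on the plus strand, with the motif at codon 855 of 955. These reelin receptors share 36 of the 45 bases. The Lrp1 stretch, the later of 2 in that gene, lies in exon 89 at chr10:127539046-127539090 on the minus strand, and shares 21 of 45 bases with Vldlr. The Lrp4 stretch lies in exon 37 at chr2:91508506-91508550 on the plus strand and shares 25 of 45 bases with Vldlr. The Lrp5 and Lrp6 stretches lie in exon 23 of each gene, at chr19:3585033-3585077 and chr6:134450789-134450833 on the minus strand, and share 39 of 45 bases. NPxY was present in Vldlr, Lrp1, Lrp1b, Lrp2, Lrp4 and Lrp8, against 1.64% of 21763 genes searched the same way. PPPSP was present in Lrp2, Lrp5 and Lrp6, against 0.45% of those genes. Sorl1 held neither of these letter patterns in the searched window. A match is a description of the sequence and was not tested for function here.

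Total counts per library ran from 68803304 to 98402403, so that 3 counts corresponded to 0.0337 to 0.0407 counts per 1000000 (CPM, on library sizes scaled with TMM factors). Young replicate 1 stood apart from the other libraries. Over the 22485 genes tested, its root mean square difference in log2 CPM from each of the others was 1.08 to 1.27, against 0.70 to 0.98 among the others. It held far more lymph node RNA, with 24 of 25 markers of B lymphocytes, T lymphocytes and lymph node stroma at their highest level there. The sum over these 25 markers was 2192 CPM in young replicate 1, 24.9 and 157.9 CPM in aged replicates 1 and 2, and 15.2 CPM in young replicate 2. Glycam1, a secreted mucin of lymph node vessels, was at 418 CPM in young replicate 1, at 0.33 CPM in aged replicate 2 and at 0 in both other libraries, and Ccl21a was at 0 in every library. Adipocyte markers were abundant in every library, with a sum over 8 genes of 9354 and 7300 CPM in aged and 6234 and 6174 CPM in young MFP. Skeletal muscle markers also separated the ages, with a sum over 8 genes of 40960 and 65732 CPM in aged against 10673 and 14758 CPM in young MFP. Mammary epithelial markers were lowest in young replicate 1 for 7 of 8 genes, and summed to 1189, 1140, 651 and 1394 CPM in aged replicates 1 and 2 and young replicates 1 and 2.

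**Figure D1:**
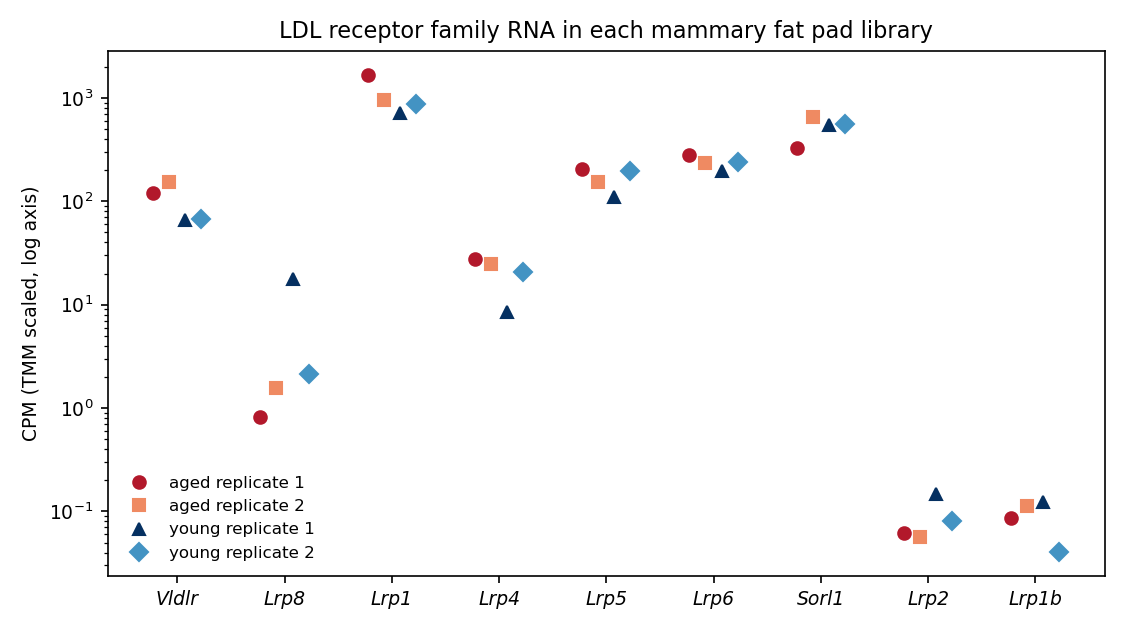
CPM (TMM scaled, log axis) of each LDL receptor family member in the 2 aged and 2 young MFP libraries, 1 point per library. Vldlr lay higher in both aged libraries, Lrp8 was at 17.9 CPM in young replicate 1 and at or below 2.15 CPM in the others, and Lrp2 and Lrp1b lay below 0.2 CPM everywhere.

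Lrp1 and Sorl1 had the highest RNA levels of the family and Lrp2 and Lrp1b the lowest. Per kilobase of exon, which is the scale on which genes can be set against each other, the mean level over the 4 libraries was 59.7 CPM per kb for Lrp1 (range 40.8 to 95.1) and 46.4 for Sorl1 (29.3 to 58.1). Sorl1 exceeded Lrp1 in every library except aged replicate 1, so the order of these neighbours was not fixed. Lrp6 followed at 17.5 CPM per kb and Lrp5 at 17.1, with overlapping ranges and an order that changed between libraries. Vldlr ranked below these members in every library, and above the remaining ones, at a mean of 10.1 CPM per kb (6.55 to 15.2). Lrp4 had 1.95 CPM per kb (0.818 to 2.65) and Lrp8 0.534 (0.0779 to 1.71), and Lrp8 exceeded Lrp4 only in young replicate 1. At the bottom, Lrp2 had 0.00516 and Lrp1b 0.00379 CPM per kb, also with overlapping ranges.

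Of the 9 members, 7 passed the filter on low counts and were tested, and Lrp1b and Lrp2 did not pass it. The edgeR quasi-likelihood test with Benjamini-Hochberg adjustment over the 22485 genes called 0 of these 7, and called 0 genes in all (0%). At an unadjusted p under 0.05, 1 of the 7 members was higher in aged MFP and 0 were lower, against 7.24% and 3.31% of all genes tested. The study names DESeq2 for its MFP RNA sequencing. Run here as an alternative, DESeq2 called 1 member higher (Vldlr) and 1 lower (Lrp8) at an adjusted p under 0.05. Of the 22385 genes with an adjusted p in DESeq2, 3.17% were called higher and 0.692% lower. Both aged libraries lay above both young libraries for 3 of 7 members (Vldlr, Lrp1 and Lrp4) and below both for 1 (Lrp8), against 23.3% and 22.8% of all genes. With 2 samples per age the smallest exact two-sided permutation p is 0.333, so no single member could pass a threshold by that test. The median log2 fold change of the 7 members was 0.24 and that of all genes tested was -0.04.

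Vldlr RNA was about 2 times higher in aged MFP. It stood at 119.7 and 153 CPM in aged replicates 1 and 2 and at 65.9 and 67.4 CPM in young replicates 1 and 2. Both aged libraries were above both young libraries, and the young libraries lay close together although one of them carried the lymph node RNA. The means were 137 ± 23.8 CPM in aged and 66.7 ± 1.08 CPM in young MFP (SD, n = 2 each). This gave a log2 fold change of 1.03 (SE 0.17), a 2.05-fold difference, with an edgeR adjusted p of 0.36 and an unadjusted p of 0.00344, while the DESeq2 adjusted p was 0.00205. With a library left out, 1 age has a single sample, which is assumed to vary like the pair of the other age. P-values then take their spread from that pair and from a trend over all genes. Without young replicate 1 the log2 fold change was 1.02, with an edgeR adjusted p of 0.299 and a DESeq2 adjusted p of 0.0175. The order of the libraries in Vldlr, highest in aged replicate 2, then aged replicate 1, young replicate 2 and young replicate 1, was also their order in summed skeletal muscle markers, and the adipocyte sum separated the ages in the same direction. The part of muscle or adipocyte RNA in the Vldlr difference was not tested.

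Lrp8, which encodes the other reelin receptor and is known mainly from brain and platelets, was the member with the widest range. Its counts were 67 and 138 in the aged libraries, 1470 in young replicate 1 and 159 in young replicate 2. Scaled, these were 0.819 and 1.55 CPM in aged replicates 1 and 2, and 17.9 and 2.15 CPM in young replicates 1 and 2. Both young libraries were above both aged libraries, and young replicate 1 was at 8.32 times the level of young replicate 2. The means were 1.18 ± 0.516 CPM in aged and 10.04 ± 11.2 CPM in young MFP (SD, n = 2 each), so the spread between the young libraries was larger than their mean. The log2 fold change was -3.08 (SE 1.14), with adjusted p-values of 0.477 in edgeR and 0.0372 in DESeq2.

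The Lrp8 value depended on the library with lymph node RNA. Without young replicate 1 the log2 fold change was -0.86, with an edgeR unadjusted p of 0.139, an edgeR adjusted p of 0.532 and a DESeq2 adjusted p of 0.879. Against young replicate 2 alone, the mean of the aged libraries was 0.55 times as high. Among the other libraries, aged replicate 2 had 10.4 times the summed lymph node markers of young replicate 2, with an Lrp8 level of 1.55 CPM against 2.15 CPM. Between the aged libraries, replicate 2 was higher than replicate 1 in both, with 157.9 against 24.9 CPM of these markers and 1.55 against 0.819 CPM of Lrp8. B lymphocyte markers summed to 692 CPM in young replicate 1 and to 6.48, 75.9 and 4.30 CPM in aged replicates 1 and 2 and young replicate 2. T lymphocyte markers summed to 1060 CPM there and to 17.6, 78.3 and 10.3 CPM in the same order, and markers of dividing cells to 97.9, 11.4, 32.8 and 30.0 CPM. In each of these lists every marker, 10 of 10, 10 of 10 and 6 of 6, was highest in young replicate 1. The part of lymphocytes or dividing cells in the Lrp8 level of that library was not tested. The antisense genes Lrp8os1 and Lrp8os2 had at most 1 count in any library.

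**Figure D2:**
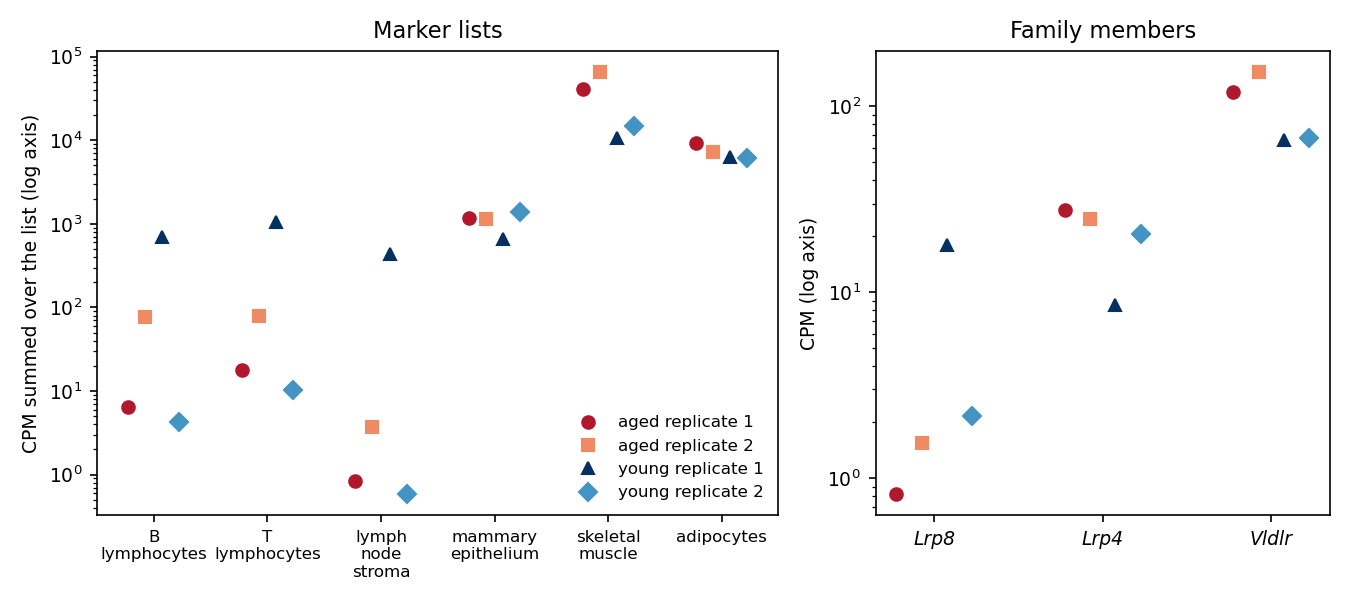
Left, CPM summed over marker lists (log axis), and right, CPM of Lrp8, Lrp4 and Vldlr (log axis), with 1 point per library. Young replicate 1 is far above the others in B lymphocyte, T lymphocyte and lymph node stroma markers and in Lrp8 (17.9 CPM). It is lowest in mammary epithelium markers (651 CPM), skeletal muscle markers (10673 CPM) and Lrp4 (8.59 CPM), and beside young replicate 2 in Vldlr.

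Lrp1, the broad clearance receptor for protease-inhibitor complexes and lipoprotein remnants, was read at 1685 and 955 CPM in aged replicates 1 and 2 and at 723 and 869 CPM in young replicates 1 and 2. Aged replicate 1 was high, whereas aged replicate 2 was only slightly above young replicate 2. The means were 1320.0 ± 516 CPM in aged and 796 ± 103 CPM in young MFP (SD, n = 2 each). The log2 fold change of 0.73 (SE 0.36) did not pass the edgeR test (adjusted p = 0.526) or DESeq2 (adjusted p = 0.391). Without aged replicate 1 it was 0.25, and without young replicate 1 it was 0.60. With libraries scaled to total counts alone, Lrp1 no longer separated the ages, since aged replicate 2 then had 865 CPM and young replicate 2 had 932 CPM. Macrophages and fibroblasts are known to carry much Lrp1. The 5 macrophage markers summed to 214 and 245 CPM in aged and 156 and 147 CPM in young MFP. The 5 fibroblast markers summed to 1137 and 842 CPM in aged and 1480 and 1722 CPM in young MFP. Of these, 3 (Pdgfra, Dpt and Dcn) were higher and 1 (Col1a1) was lower in aged MFP at an unadjusted p under 0.05 in edgeR. Of all genes tested, 7.24% were higher and 3.31% were lower by this rule. The remaining marker, Pi16, had a log2 fold change of -1.14 and overlapped between the ages. The part of macrophages or fibroblasts in the Lrp1 values was not tested.

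Lrp4, the agrin receptor, which also binds Wnt inhibitors, was at 27.8 and 24.9 CPM in aged replicates 1 and 2 and at 8.59 and 20.5 CPM in young replicates 1 and 2. The aged libraries were near each other, and young replicate 1 was low. Mean levels were 26.3 ± 2.07 CPM in aged and 14.5 ± 8.42 CPM in young MFP (SD, n = 2 each), with a log2 fold change of 0.86 (SE 0.46) and an edgeR adjusted p of 0.538. The difference was 0.36 on the log2 scale without young replicate 1 and 1.63 without young replicate 2. The library with the lowest Lrp4, young replicate 1, was also lowest in summed mammary epithelial markers (651 CPM) and skeletal muscle markers (10673 CPM). The muscle sum was higher in both aged libraries, as Lrp4 was. Young replicate 2 had the highest epithelial sum (1394 CPM) and an Lrp4 level below both aged libraries. The part of epithelial or muscle RNA in the Lrp4 values was not tested.

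The Wnt coreceptors Lrp5 and Lrp6 overlapped between the ages. Lrp5 was at 204 and 154 CPM in aged replicates 1 and 2 and at 109 and 196 CPM in young replicates 1 and 2. Lrp6 was at 280.1 and 237 CPM in the aged and at 196 and 243 CPM in the young libraries. For both genes young replicate 1 was lowest, and young replicate 2 lay within the aged range. The log2 fold changes were 0.23 (SE 0.35) for Lrp5 and 0.24 (SE 0.19) for Lrp6, with edgeR adjusted p-values of 0.791 and 0.619. Lrp5 turned to -0.13 without young replicate 1, and Lrp6 was then 0.09.

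Sorl1, a sorting receptor that joins LDL receptor repeats to a VPS10 domain and moves cargo between the Golgi and endosomes, differed most between the aged libraries among the tested members, with 331 and 658 CPM in aged replicates 1 and 2, a ratio of 1.99. The young libraries, at 550 and 560 CPM, lay between them. The log2 fold change was -0.16 (SE 0.38, edgeR adjusted p = 0.865), and it was 0.23 without aged replicate 1 and -0.74 without aged replicate 2. The sign of the Sorl1 difference thus changed with the aged library used. The antisense gene Gm16214 shares exon positions with Sorl1 and had 0 to 41 counts, the highest in young replicate 1, against 27098 or more for Sorl1 in every library.

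Lrp1b and Lrp2 were close to the detection limit. Lrp1b had 7 and 10 counts in aged replicates 1 and 2, and young replicates 1 and 2 had 10 and 3. The exact 95% Poisson intervals ran from 0.619 to 8.77 for the count of 3 and from 4.80 to 18.4 for a count of 10, and so overlapped. Lrp2, the endocytic receptor megalin of the kidney tubule and other epithelia, had 5 counts in each aged library and 12 and 6 in young replicates 1 and 2, with intervals of 1.62 to 11.7 for 5 counts and 6.20 to 20.96 for 12. An age difference in either gene was not detectable at this depth. The intervals cover counting error only.

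**Figure D3:**
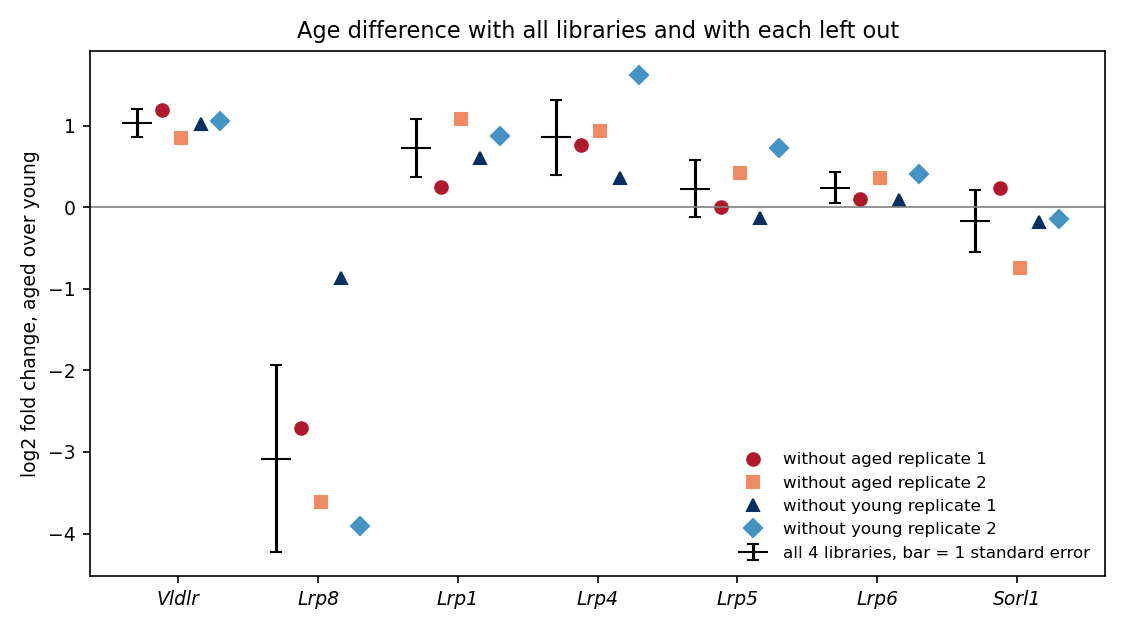
Log2 fold change, aged over young, of the 7 tested members with all 4 libraries (dash, bar = 1 SE) and with each library left out in turn (coloured points). Vldlr stays between 0.84 and 1.19, Lrp8 moves from -3.08 to -0.86 without young replicate 1, and Lrp5 and Sorl1 have points on both sides of 0.

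Of the 9 members, 5 (Vldlr, Lrp1, Lrp4, Lrp5 and Lrp6) had their lowest CPM in young replicate 1, and 3 (Lrp8, Lrp2 and Lrp1b) had their highest there. Leaving that library out moved Lrp8 and Lrp4 the most, whereas Vldlr changed by little. Scaling by total counts in place of TMM shifted the median of all genes tested by -0.18 on the log2 scale, and Vldlr was then at 0.85 and Lrp8 at -3.27. Relative to that shift these values differed little from those with TMM.

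For the members that varied most between libraries (SD of log2 CPM above 0.5: Vldlr, Lrp1, Lrp4 and Lrp8), the 3 tested genes nearest in pattern over the 4 libraries were found by the root mean square difference of centred log2 CPM. Nearest to Vldlr were Gm49540, Gpc1 and Abcc9, at 0.027, 0.034 and 0.039. Gpc1, a heparan sulfate proteoglycan of the cell surface, was at 86.2 and 106 CPM in aged and 47.8 and 46.6 CPM in young MFP, and Abcc9, a regulatory subunit of potassium channels in muscle, at 109 and 139.6 against 57.7 and 57.7 CPM. Nearest to Lrp1 were Itih5, Lix1l and Gm44066, at 0.026, 0.039 and 0.043, of which Itih5, a hyaluronan-binding protein, was at 521 and 297 CPM in aged and 232 and 265 CPM in young MFP. Lrp4 was nearest to Gm20655, Adamtsl1 and Lonrf3, at 0.018, 0.043 and 0.044. Lrp8 had less close neighbours, Gm24265, Gm16155 and Gata1, at 0.13, 0.17 and 0.17. Gata1, a transcription factor of the red cell and platelet lineages, was at 1.13 CPM in young replicate 1. It was at 0.0489, 0.0786 and 0.136 CPM in aged replicates 1 and 2 and young replicate 2. Since 3 counts corresponded to 0.0337 to 0.0407 CPM, these low Gata1 levels rested on few reads. Other neighbours were also low, with Gm49540 at 0.061 to 0.18 CPM and Gm44066 at 0.159 to 0.428 CPM. Outside young replicate 1, Gm16155 was at 0.0367 to 0.176 CPM. All neighbours named here are likenesses over 4 libraries, given as a description.

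Genes that act with each member were read from the same fit, and no gene of any of these lists passed the edgeR test after adjustment. Among 8 tested receptors with class A repeats outside the family, 1 was higher and 0 were lower at an edgeR unadjusted p under 0.05. Of all genes tested, 7.24% were higher and 3.31% were lower in aged MFP by this rule. The median log2 fold change of these receptors was 0.02. The higher receptor was Ldlrad3, at 21.6 and 23.0 CPM in aged and 13.3 and 16.2 CPM in young MFP (log2 fold change 0.60, SE 0.19, edgeR adjusted p = 0.454). Ldlrad1 had the largest difference, -0.84, at levels below 1 CPM. Of the 3 tested sorting receptors with a VPS10 domain beside Sorl1, none had an unadjusted p under 0.05 in edgeR and none was called by DESeq2. Sorcs2 was at 0.92 on the log2 scale, with 86.7 CPM in aged replicate 2 and 29.8 to 34.0 CPM in the others, and Sorcs1 was at -0.69.

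Of 8 tested chaperones, adaptors and turnover factors of the receptors, 0 had an unadjusted p under 0.05 in edgeR and 0 were called by DESeq2. By the edgeR rule, 7.24% of all genes tested were higher and 3.31% were lower. The median log2 fold change of the 8 was 0.35, with 7 above and 1 below 0. The largest differences were in Gulp1, an engulfment adaptor that binds Lrp1, at 0.55 (edgeR adjusted p = 0.534), and Dab2, an endocytic adaptor for NPxY motifs, at 0.54 (edgeR adjusted p = 0.504). In the reelin pathway, 0 of 7 tested genes had an unadjusted p under 0.05 in edgeR and 0 were called by DESeq2. Fyn, a Src family kinase that acts after reelin binding and is also abundant in T lymphocytes, was at 101 CPM in young replicate 1 and at 29.6, 34.4 and 36.5 CPM in aged replicates 1 and 2 and young replicate 2 (log2 fold change -1.10, edgeR adjusted p = 0.522). Reelin itself (Reln) was at 16.4 and 16.1 CPM in aged and 11.1 and 30.5 CPM in young MFP (log2 fold change -0.36). The adaptor Dab1, which binds the NPxY motif of Vldlr and Lrp8 and was named after its values were seen, did not pass the filter on low counts, with 142 counts in young replicate 1 and 1, 4 and 3 in aged replicates 1 and 2 and young replicate 2. Of the 8 genes of this list, 2 (Fyn and Dab1) had their highest level in young replicate 1 and 2 (Reln and Src) their lowest.

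Of 10 tested ligands that are cleared through Lrp1, 2 were higher in aged MFP at an unadjusted p under 0.05 in edgeR, the same number was called by DESeq2, and 0 were lower by either. Of all genes, 7.24% in edgeR and 3.17% in DESeq2 were higher by these rules. Serpine2, protease nexin-1, was at 33.1 and 35.3 CPM in aged and 7.34 and 13.3 CPM in young MFP. Its log2 fold change was 1.73 (SE 0.34), with adjusted p-values of 0.374 in edgeR and 0.000916 in DESeq2. Plau, the urokinase protease, completed the pair and was named after its values were seen, at 34.1 and 29.5 CPM against 12.7 and 18.6 CPM (log2 fold change 1.02, DESeq2 adjusted p = 0.0436).

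Among 10 tested modulators of Lrp5 and Lrp6, 1 was higher and 0 lower at an unadjusted p under 0.05 in edgeR. Of all genes tested, 7.24% were higher and 3.31% were lower by this rule. The median log2 fold change of the modulators was 0.07. The higher modulator was Rspo1, a secreted protein that raises Wnt receptor levels, at 3.11 and 2.85 CPM in aged and 0.415 and 0.827 CPM in young MFP (log2 fold change 2.26, SE 0.46, adjusted p = 0.381 in edgeR and 0.000746 in DESeq2). Rspo3 was at 1.13 on the log2 scale from levels below 0.5 CPM. In the agrin and Lrp4 pathway, 3 of 4 genes were higher at an unadjusted p under 0.05 in edgeR and 2 were called by DESeq2, against 7.24% and 3.17% of all genes. Musk, the kinase that Lrp4 works with, was at 3.27 and 5.81 CPM in aged and 0.354 and 0.745 CPM in young MFP (log2 fold change 3.04, SE 0.58, adjusted p = 0.37 in edgeR and 3.18e-05 in DESeq2). Rapsn, which anchors acetylcholine receptors, was at 4.40 and 6.34 CPM against 1.60 and 1.34 CPM (log2 fold change 1.87, SE 0.33, adjusted p = 0.36 in edgeR and 8.76e-05 in DESeq2). The third, Dok7, had a log2 fold change of 1.36 (DESeq2 adjusted p = 0.0766). Agrn, the ligand, was at 228 and 167 CPM in aged and 131 and 279 CPM in young MFP, so its ages overlapped. Musk, Rapsn and Dok7 are genes of skeletal muscle, whose 8 markers were all higher in both aged libraries, and the part of muscle RNA in their values was not tested.

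Of the 5 partners of Lrp2, 2 were lower in aged MFP at an unadjusted p under 0.05 in edgeR, against 3.31% of all genes, and 0 were called by DESeq2. Amn, which anchors cubilin, was at 0.122 and 0.191 CPM against 0.695 and 0.434 CPM (log2 fold change -1.84, edgeR adjusted p = 0.417), and Clcn5, an endosomal chloride transporter, was at 17.4 and 14.9 CPM against 21.6 and 27.8 CPM (log2 fold change -0.62, edgeR adjusted p = 0.466).

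**Figure D4:**
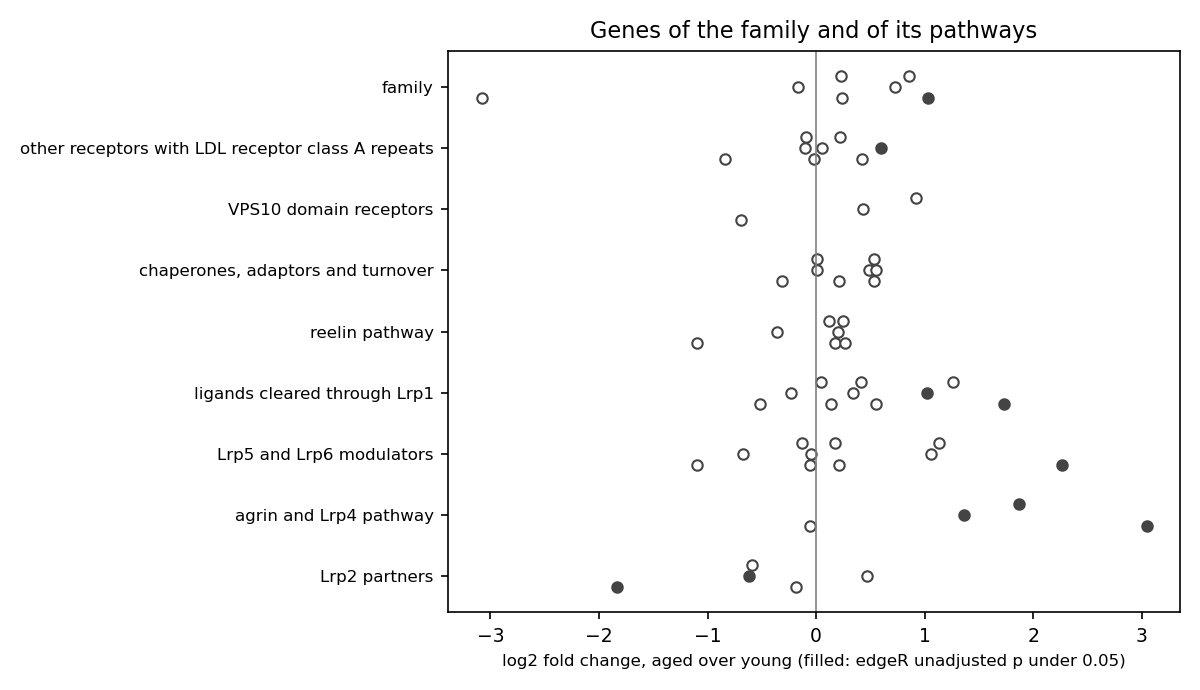
Log2 fold change, aged over young, of each tested gene of the family and of 8 pathway lists, 1 circle per gene, filled where the edgeR unadjusted p was under 0.05. Lrp8 is the leftmost family member at -3.08 and Vldlr the filled one at 1.03, and 3 of the 4 agrin and Lrp4 pathway genes are filled and to the right of 0.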

How the data were processed

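The authors deposited 1 table of raw counts of reads per gene. Per the labels and the submitters' processing notes, libraries were made with a directional kit after ribosomal RNA depletion and counted with featureCounts (R 3.6.1 and GRCm38 are also named). The aligner, annotation release and strand setting were not given in the sources used here. The labels name c57b/6j mice, and the study's methods name both a J strain and C57BL/6N Crl. Labels call the replicates biological.

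Counts were analysed with edgeR 4.0.16 (filterByExpr, TMM, glmQLFit and glmQLFTest, age as the only term) in R 4.3.3, which tested 22485 genes, with Benjamini-Hochberg adjustment and a threshold of 0.05. SEs were taken from the log2 fold change and the F statistic. DESeq2 1.42.0, the tool that the study names for its MFP RNA sequencing, was an alternative. Plots and likeness used CPM on TMM-scaled libraries, with a prior count of 2 for log2 values. The fitting code was tested on simulated data. The identifiers of 55141 of 55487 genes were found in GENCODE M21, from which lengths and sequences came, and 114 symbols stood on more than 1 row.

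Named were all members, the 2 tested genes with the largest absolute change in each pathway list, and the 3 genes most like each member with an SD over 0.5. Results for some genes that this rule names are not reported here. Members and lists were chosen with earlier results of these data known. No source used here says that replicate numbers mark pairs, so they were not used as pairs. Same-numbered aged and young samples deviated from their group means in opposite directions (correlation -0.48). With 2 samples per age this sign depends on which libraries share a number, so it cannot decide whether they are pairs.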

Additional observations from a re-analysis of the deposited data

How the results depend on the processing

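Of 98 log2 fold changes of members under 14 alternatives each for 7 members, 92 kept their direction and their side of the threshold. Every edgeR alternative left all genes on the same side of the threshold, so there only a change of direction could count. Size was not part of this rule, and Lrp8 counted as kept at -0.86 without young replicate 1. Vldlr and Lrp8 were past the threshold under DESeq2, and Vldlr also under DESeq2 without young replicate 1. DESeq2 called 865 genes and 2 members, and 766 genes and 1 member without young replicate 1, where edgeR called 0. The number of members at an unadjusted p under 0.05 rose from 1 to 2 under DESeq2, total counts only, no filter, and a minimum of 10 counts, with Lrp8 as the second, and ran from 1 to 4 with 1 library left out (4 without young replicate 2 and 3 without aged replicate 2, where 27.9% and 3.48% of all genes passed, against 10.5% with all libraries). Over the libraries left out, Lrp5 ran from -0.13 to 0.73 and Sorl1 from -0.74 to 0.23, and Lrp5 was also -0.13 under DESeq2 without young replicate 1. Lrp8 ran from -3.91 to -0.86 and Lrp1 from 0.25 to 1.08. Tested members without overlap numbered 4, or 3 by total counts. With the replicate block, edgeR called 0 genes and 0 members, 1 member had an unadjusted p under 0.05, and genes at an unadjusted p under 0.05 fell from 2371 to 1346. The crossed block, chosen after seeing the data as was DESeq2 without young replicate 1, gave 2494 such genes, 2 such members and 0 calls. Depth limits what can be said of Lrp1b and Lrp2, at 12 counts or fewer per library. P-values rest on the spread between 2 samples per age, or on 1 pair where a library was left out, together with a trend over all genes.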
